A study of Mus musculus with 20 samples.

Results

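Genes that the tumour suppressor p53 is known to switch on were followed in mouse muscle: Cdkn1a, Bbc3, Bax, Mdm2, Ccng1, Sesn2, Trp53inp1, Pmaip1 and Casp9. They were taken by gene name as 9 of the 27376 gene names on the array, and the rule uses no measured value, although earlier results of these data were known when the genes were chosen. They are read by 13 probes in 40 spots per array, and 8 of the 9 were bright enough to be tested among 15719 genes. RNA came from the extensor digitorum longus (EDL), a muscle of the lower leg built mostly of fast fibres. The mice were C57Bl6 males, 8 weeks old when the vectors were injected.

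Every animal carried recombinant adeno-associated virus of serotype 6 in both hindlimbs, in 30 µL per injection, and 4 weeks later had an intraperitoneal injection. HS is the right leg of an animal given vectors for D832N HDAC4 and D861N HDAC5, at 2.5e+10 vector genomes each, and then Scriptaid, an inhibitor of histone deacetylases. HV is the right leg with the same mutant HDAC vectors (dnHDAC4/5) and the vehicle, 5% DMSO in buffered saline. ES is the left leg with the empty vector in the Scriptaid animals. EV is the left leg with the empty vector in the vehicle animals. Each group has 5 arrays, so HS and ES come from 5 animals and HV and EV from 5 others. The vector and the side of the body cannot be told apart, since the mutant vectors were always on the right. The labels give no Scriptaid dose and no time to dissection. The ES titles name the vehicle, while its treatment entries and animal numbers name Scriptaid, which was followed.

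The protein p53 is held low in resting cells, chiefly by the ubiquitin ligase that Mdm2 encodes. DNA damage and other stress release it, and it then binds paired 10-base half-sites in its target genes. Its targets include brakes on the cell cycle, triggers of the mitochondrial pathway of cell death, its own inhibitor Mdm2, and genes for coping with oxidative and nutrient stress. In muscle Cdkn1a also rises when myoblasts leave the cell cycle to form fibres, with no need of p53, and inhibitors of histone deacetylases are known to raise Cdkn1a in cultured cells.

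The promoter windows of 3 members, each running from 250 bases before to 50 bases after an annotated start (RefSeq, GRCm38.p6), are shown because they hold a match to the 20-base p53 consensus. The capitals mark that match. The Cdkn1a window lies at chr17:29090729-29091028 on the plus strand, and its match at positions -51 to -32 from the start has 1 mismatch. The Ccng1 window lies at chr11:40755237-40755536 on the minus strand, with 1 mismatch at positions -195 to -176. The Bbc3 window lies at chr7:16309333-16309632 on the plus strand, with 3 mismatches at positions -97 to -78.
Cdkn1a: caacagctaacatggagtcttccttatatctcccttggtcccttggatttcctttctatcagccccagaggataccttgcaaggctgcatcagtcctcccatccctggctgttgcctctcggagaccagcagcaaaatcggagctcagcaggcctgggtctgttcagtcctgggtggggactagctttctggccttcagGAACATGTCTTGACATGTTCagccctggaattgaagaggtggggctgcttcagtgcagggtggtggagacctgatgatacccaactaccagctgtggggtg
Ccng1: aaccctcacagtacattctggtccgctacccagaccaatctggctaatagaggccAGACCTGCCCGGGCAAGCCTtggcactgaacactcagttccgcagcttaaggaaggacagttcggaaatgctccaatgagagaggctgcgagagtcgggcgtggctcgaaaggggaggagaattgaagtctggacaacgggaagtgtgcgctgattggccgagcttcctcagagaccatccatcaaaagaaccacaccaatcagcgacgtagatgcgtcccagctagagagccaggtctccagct
Bbc3: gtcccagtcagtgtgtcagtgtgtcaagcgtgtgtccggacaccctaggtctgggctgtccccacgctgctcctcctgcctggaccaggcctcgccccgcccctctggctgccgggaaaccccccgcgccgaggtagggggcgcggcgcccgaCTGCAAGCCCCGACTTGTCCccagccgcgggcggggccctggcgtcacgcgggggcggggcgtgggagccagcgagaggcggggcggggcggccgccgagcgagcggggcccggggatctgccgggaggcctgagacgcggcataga

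The p53 consensus was searched with 2 half-sites side by side and up to 3 mismatches outside the fixed C and G of each half-site. The consensus reads the same on both strands, so 1 search covers both. Of 32851 promoter windows of the same length, 0.067% held a match with up to 1 mismatch and 1.38% one with up to 3. Windows were found for 7 of 8 members looked up, 10 windows in all, and a match was found in 3 members. The windows of Bax, Mdm2, Sesn2 and Casp9 held none, and neither did the other windows of Cdkn1a and Bbc3. This says only that these letters are not there. The counts here are of members, some with more than 1 window, while the shares are of windows. An exact half-site stood in a window of 4 members (Cdkn1a, Bax, Mdm2 and Ccng1), against 8.36% of all windows. A match in the sequence is a description and not evidence of binding.

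On the array each value is the log2 of the scanner's processed intensity less the 75th percentile of that array, so that 0 is the brightness of the spot at that percentile and a difference of 1 is a doubling. That percentile ran between 248.4 and 608.1 intensity units, and 51.7% to 61.3% of spots were well above background. Probes differ in brightness for reasons of their own, so levels are compared within a probe and not between genes. A gene was called when the adjusted p from limma over all genes was under 0.05. In bulk muscle, fewer cells of a type and less RNA per cell cannot be told apart. As a check of the vectors, Hdac4 was 0.28 higher in HV than in EV legs (adjusted p = 1), and Hdac5, on a border spot, differed by -0.01. Whether these probes read the vector's sequence is not given in the sources used here.

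Arrays of 1 slide carried 1 sample of each group, and each group always lay at its own place, which therefore cannot be told apart from the group. The 5 HS arrays were unlike the other 15 at their right border: 18.2% to 32.7% of the spots in the last 2 of 85 columns fell far below the other arrays, against 0% to 2.31% in HV, ES and EV arrays. The scanner software divides the signal by a fitted trend surface, and on HS arrays that surface bent down towards this border. Of the 195 genes called between HS and ES, 80% were read from columns 73 to 85, which held 13.8% of the genes tested. Bbc3 and Casp9 have 1 spot each, in column 76. Their values are therefore given with the surface as deposited, with each spot centred on its neighbours, and with the division undone.

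**Figure D1:**
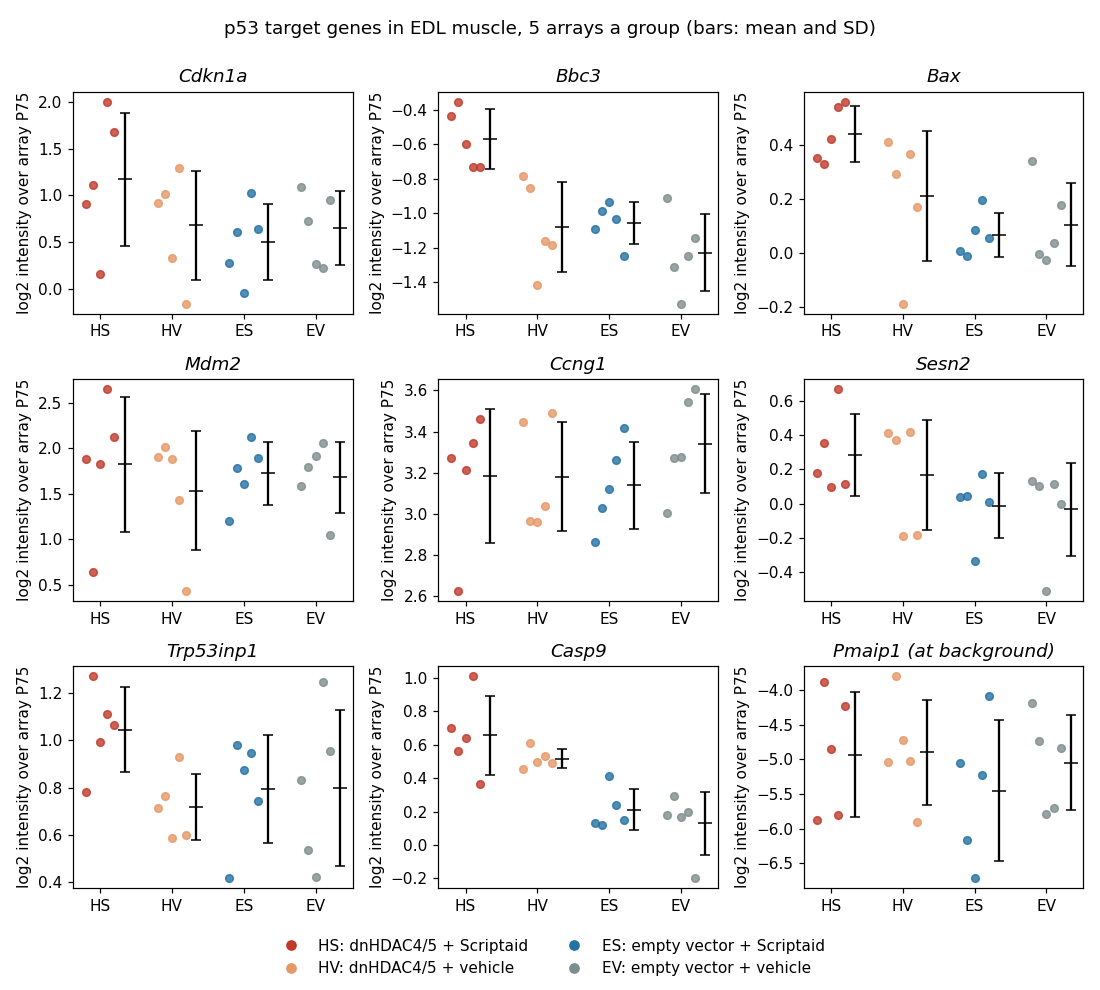
Log2 intensity over the array's 75th percentile (y axis) of the 9 genes in the 4 groups (x axis), with a point per array and the mean and SD beside it, n = 5 a group. In these values Bbc3 and Bax lie higher on all 5 HS arrays than on all 5 ES arrays, though Bbc3 does not after centring on neighbours. Mdm2 and Ccng1 overlap in every pair of groups and Pmaip1 lies near background.

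Cdkn1a encodes p21, which halts the cell cycle by binding cyclin-dependent kinases. It is read by 1 probe printed in 10 spots between columns 18 and 69, away from the affected border. Its values were 0.91, 1.11, 0.16, 2.00 and 1.68 in HS legs, against 0.28, 0.61, -0.05, 1.03 and 0.65 in the ES legs of the same animals. Each HS leg was above its own ES leg, by 0.21 to 1.03, although the ranges of the groups overlap. The mean difference was 0.67 ± 0.33 (SE, limma), a 1.59-fold difference, and was not called (adjusted p = 0.442).

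In the vehicle animals Cdkn1a was 0.92, 1.02, 0.34, 1.29 and -0.16 in HV legs, against 1.09, 0.73, 0.27, 0.23 and 0.95 in EV legs. The leg differences there ran from -1.11 to 1.07 with 3 of 5 above 0, and the mean difference was 0.03 ± 0.33 (SE). Replicate animals of 1 group thus spread over a range wider than any difference between group means, with SDs of 0.71 in HS, 0.58 in HV, 0.41 in ES and 0.39 in EV legs. The 10 spots of the probe gave HS minus ES differences of 0.32 to 0.87, all above 0, and the SD between spots on an array was 0.174. The spread between animals, each on its own slide within a group, was thus larger than that between spots. The HS minus ES difference was 0.67 with centring on neighbours and 0.68 with the division undone.

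Ccng1 encodes cyclin G1, among the strongest p53 targets in mouse cells, and its promoter holds the match shown above.  Its values were 3.27, 2.63, 3.21, 3.35 and 3.46 in HS legs, against 2.86, 3.03, 3.12, 3.26 and 3.42 in ES legs. In vehicle animals they were 3.45, 2.97, 2.96, 3.04 and 3.49 in HV legs, against 3.01, 3.27, 3.28, 3.54 and 3.61 in EV legs. All 4 groups overlap. The difference between HS and ES was 0.05 ± 0.17 (SE; adjusted p = 0.964), with an interval of -0.29 to 0.38. ES legs were below the EV legs of the same slide in 5 of 5 slides, by 0.15 to 0.28, yet the limma test across the groups gave -0.20 ± 0.17 (SE; adjusted p = 1). A brighter second probe of Ccng1 lies in column 3, had its spot marked by the scanner on 7 arrays and was not tested. Where marked spots are kept, this probe stands for the gene and Ccng1 is far from the values above: HS minus ES was -0.97 (adjusted p = 0.467), HV minus EV 0.29 and ES minus EV 0.80 (adjusted p = 1 for both). With the authors' series table the same differences were -1.03, 0.35 and 0.87 (adjusted p = 0.557, 1 and 0.915). With its marked spots dropped, the second probe gave -0.25, -0.15 and 0.20. The direction for Ccng1 thus rests on which probe is read for HS minus ES and ES minus EV. For HV minus EV it turned where marked spots are kept. It also turned from the spots' mean signal with normexp background correction, at 0.19 (limma, adjusted p = 0.477).

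Bbc3 encodes PUMA, a BH3-only protein that opens the mitochondrial route to cell death. Its values were -0.43, -0.35, -0.60, -0.73 and -0.73 in HS legs, against -1.09, -0.98, -0.93, -1.03 and -1.25 in ES legs. HV legs had -0.78, -0.85, -1.42, -1.16 and -1.18, against -0.91, -1.31, -1.52, -1.25 and -1.14 in EV legs. As deposited, every HS value lies above every value of the other 3 groups. The highest HV value is close to the lowest HS value, and the share of all genes with that trait was not computed. HS legs were 0.66 ± 0.14 (SE) above EV legs, a 1.58-fold difference that was called (adjusted p = 0.0138). The difference was 0.49 ± 0.14 between HS and ES (SE; adjusted p = 0.0941) and 0.51 ± 0.14 between HS and HV (SE; adjusted p = 0.0822).

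These Bbc3 values depend on the border. At its spot the scanner's trend surface stood at -0.29 on HS arrays against 0.07 on EV arrays, on the log2 scale, so the division set HS values 0.36 higher relative to EV. The spots around it still read 0.20 higher in HS than in EV after the division. Centred on those neighbours, Bbc3 was 0.45 ± 0.14 (SE) higher in HS than in EV legs and was no longer called (adjusted p = 0.148). With the division undone it was 0.30 ± 0.15 (SE; adjusted p = 0.295). HS minus ES was then 0.29 and 0.14 under these settings. From the spots' mean signal with normexp background correction, HS minus EV of Bbc3 was -0.05 (adjusted p = 0.832). HS legs exceeded their ES legs in 5 of 5 animals after centring, by 0.15 to 0.60. The groups then overlapped, since the lowest HS value was -0.95 and the highest HV, ES and EV values were -0.73, -0.88 and -0.81.

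Casp9 encodes caspase-9, the first protease of the mitochondrial pathway. Its values were 0.70, 0.56, 0.64, 1.01 and 0.36 in HS legs, against 0.13, 0.12, 0.42, 0.24 and 0.15 in ES legs. In vehicle animals they were 0.46, 0.61, 0.50, 0.54 and 0.49 in HV legs, against 0.18, 0.29, 0.17, 0.20 and -0.20 in EV legs. The dnHDAC4/5 leg was higher in all 10 animals. Of genes with 5 pairs, 10.2% were higher in all 5 Scriptaid animals and 3.4% in all 5 vehicle animals. HV and EV legs do not overlap for Casp9, and the share of all genes with that trait was not computed. With the vector averaged over both injections Casp9 was 0.42 ± 0.08 (SE) higher, or 1.34-fold, and was the member called (adjusted p = 0.0212). HS exceeded EV legs by 0.53 ± 0.12 (SE; adjusted p = 0.0222).

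Casp9 shares the column of Bbc3, and its trend surface stood at -0.71 on HS arrays, against -0.27 on EV arrays. Centred on neighbours, HS minus EV was 0.40 ± 0.13 (SE; adjusted p = 0.167) and the vector average was 0.34 ± 0.09 (SE; adjusted p = 0.1). With the division undone these were 0.09 and 0.21 (adjusted p = 0.753 and 0.336), so the size of the HS difference rests on how the surface is handled. With normexp, HS minus EV of Casp9 was also 0.09 (adjusted p = 0.606). The HV minus EV difference compares no HS array, although its SE comes from a fit of all 4 groups. This difference was 0.39 ± 0.12 as deposited, 0.38 ± 0.13 with centring and 0.34 ± 0.14 with the division undone (SE). With normexp it was 0.28. Over all genes that HV minus EV difference was not called (adjusted p = 0.810, unadjusted p = 0.00385).

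**Figure D2:**
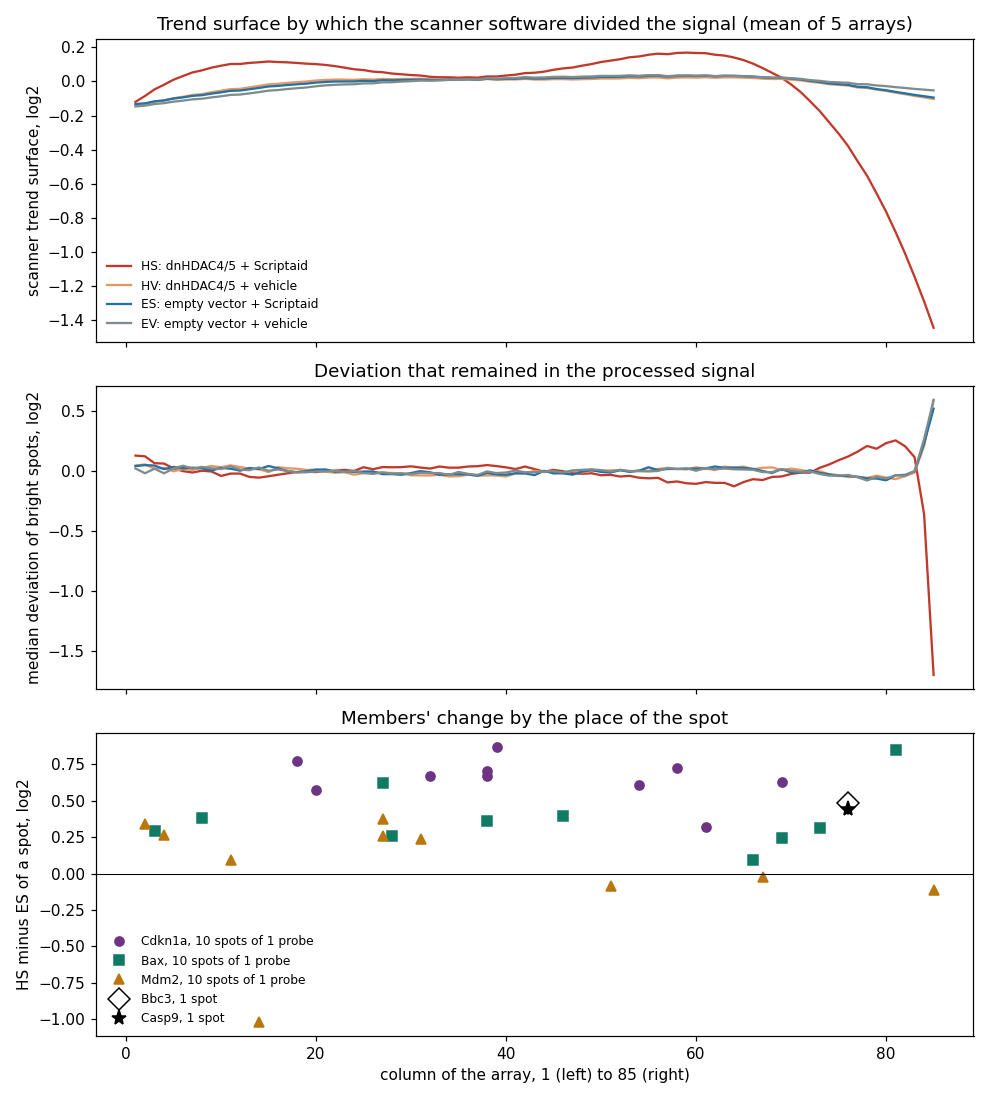
Against the column of the array (x axis): the scanner's trend surface per group (top, log2), the median deviation of bright spots left in the processed signal per group (middle, log2), and HS minus ES of single spots of members (bottom, log2). On HS arrays the surface falls to -1.45 at column 85 and the spots left of the border read high, with 0.26 at column 81 and -1.70 at column 85; the Bax spot at column 81 has the largest HS minus ES difference of its 10 spots, 0.85.

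Bax encodes the protein that perforates the mitochondrial membrane when BH3-only proteins such as PUMA activate it. It has 10 spots of 1 probe, spread from column 3 to column 81. Its values were 0.35, 0.33, 0.42, 0.54 and 0.56 in HS legs, against 0.01, -0.01, 0.09, 0.20 and 0.05 in ES legs. The leg differences in the Scriptaid animals were 0.34, 0.34, 0.34, 0.34 and 0.51, with the smallest SD of the 8 tested members (0.07), and the groups do not overlap. In vehicle animals Bax was 0.41, 0.29, -0.19, 0.37 and 0.17 in HV legs, against 0.34, -0.00, -0.03, 0.04 and 0.18 in EV legs, with leg differences of -0.16 to 0.33. HS minus ES was 0.37 ± 0.11 (SE), or 1.30-fold, and was not called (adjusted p = 0.134, unadjusted p = 0.00392).

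The 10 Bax spots serve as a check within the array. The spot in column 81 gave an HS minus ES difference of 0.85, and the other 9 spots gave 0.09 to 0.62. From the 7 spots in the first 72 columns and off the border, Bax was 0.34 ± 0.06 (SD over 5 animals) higher in HS than in ES legs, and higher in 5 of 5 animals. Bax was 0.31 ± 0.11 with centring on neighbours and 0.35 ± 0.11 with the division undone (SE; adjusted p = 0.308 and 0.110). Of the 3 members with the lowest unadjusted p between HS and ES (Casp9, Bbc3 and Bax), Bax was thus the one whose difference was within 1.5 times of its deposited size under both of these settings.

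Pmaip1 encodes NOXA, another BH3-only protein. Its single spot, in the first column, was well above background on 3 of 20 arrays, so it was not tested. Values ran from -5.88 to -3.88 in HS legs, -5.91 to -3.79 in HV legs, -6.72 to -4.08 in ES legs and -5.79 to -4.18 in EV legs. At this brightness no difference was detectable. Its sequence is not shown.

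Mdm2 closes the feedback loop on p53. The brighter of its 2 probes read 1.89, 0.64, 1.83, 2.65 and 2.12 in HS legs, against 1.20, 1.79, 1.61, 2.13 and 1.90 in ES legs. HV legs read 1.90, 2.01, 1.89, 1.43 and 0.43, against 1.58, 1.79, 1.91, 2.06 and 1.05 in EV legs. The ranges of the 4 groups overlap. HS minus ES was 0.10 ± 0.34 (SE; adjusted p = 0.961), with an interval of -0.56 to 0.76, so a change of the size seen in Cdkn1a or Bax lies inside it. The second probe, with 10 spots, gave 0.06 ± 0.14 (SE) for HS minus ES and 0.23 ± 0.14 (SE) for HV minus EV. From its 7 spots off the border and in the first 72 columns, HS minus ES was 0.16 ± 0.20 (SD over 5 animals). Its 3 border spots disagreed in sign, with HS minus ES of -1.02 at row 530, -0.11 at column 85 and 0.34 at column 2.

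Sesn2 encodes sestrin 2, which restrains the growth kinase mTORC1 under nutrient and oxidative stress. Its values were 0.18, 0.35, 0.10, 0.67 and 0.12 in HS legs, against 0.04, 0.04, -0.34, 0.18 and 0.01 in ES legs. HV legs had 0.42, 0.37, -0.19, 0.42 and -0.18, against 0.13, 0.10, -0.51, 0.11 and -0.00 in EV legs. The dnHDAC4/5 leg was higher in 9 of 10 animals, and animal 5 of the vehicle group was the exception. HS minus ES was 0.30 ± 0.17 and HV minus EV 0.20 ± 0.17 (SE; adjusted p = 0.542 and 1). A second Sesn2 probe gave 0.18 ± 0.20 and -0.07 ± 0.20 (SE), so the probes disagree in sign in the vehicle animals.

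Trp53inp1 encodes a nuclear protein that takes part in cell-cycle arrest and autophagy under stress. Its values were 0.78, 1.27, 0.99, 1.11 and 1.07 in HS legs, against 0.42, 0.98, 0.87, 0.95 and 0.74 in ES legs. In vehicle animals they were 0.71, 0.76, 0.59, 0.93 and 0.60 in HV legs, against 0.83, 0.53, 0.42, 1.25 and 0.96 in EV legs. HS legs were above their ES legs in 5 of 5 animals, by 0.12 to 0.36, but only 2 of 5 HV legs were above their EV legs. HS minus ES was 0.25 ± 0.15 and HS minus HV 0.33 ± 0.15 (SE; adjusted p = 0.580 and 0.450). HS minus ES was 0.33 ± 0.15 with centring and 0.42 ± 0.16 with the division undone (SE; adjusted p = 0.495 and 0.215), so here the surface lowered the value.

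The second Trp53inp1 probe went the other way, at -0.23 ± 0.23 (SE) for HS minus ES. Its 60 bases are a repeat, shown because it may read transcripts other than Trp53inp1, which was not tested; 33 of 34 bases were the same after a shift of 26. The gene Trp53inp1 lies on chromosome 4, and the place of the repeat in the genome was not looked up. The unit is
Trp53inp1 repeat unit: agtactaatacttaccacagcaggcg

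**Figure D3:**
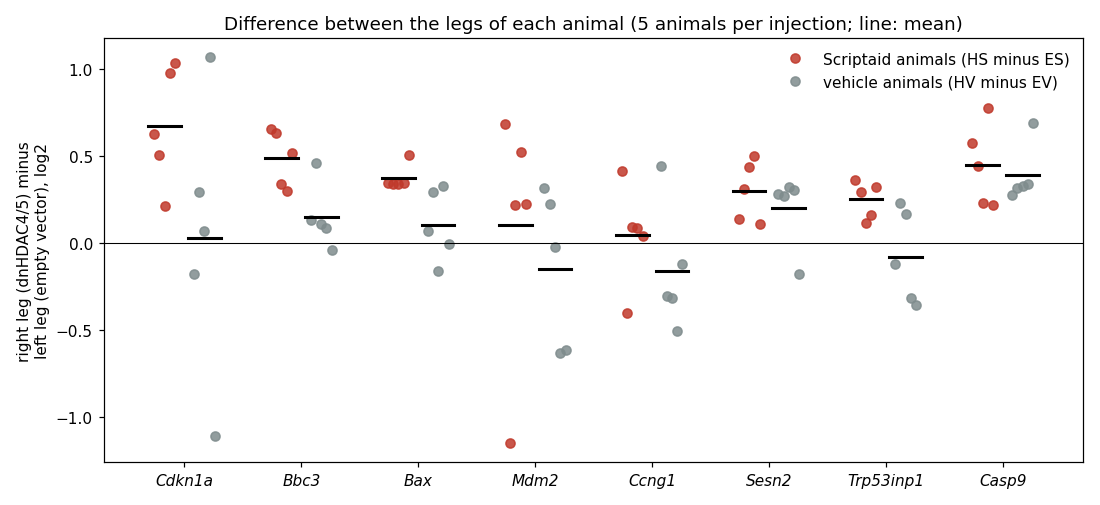
Right leg (dnHDAC4/5) minus left leg (empty vector) in log2 units (y axis) for the 8 tested genes (x axis), with a point per animal and a line at the mean, n = 5 Scriptaid and 5 vehicle animals. In the Scriptaid animals 6 genes lie above 0 in 5 of 5 animals, and in the vehicle animals Casp9 does.

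The next comparisons take the 8 tested members together, beginning with HS against ES, the 2 legs of the Scriptaid animals. All 8 tested members were higher in HS legs in the main fit, with a median of 0.34 against 0.03 over all genes. Some lay near 0 and turned sign in other fits. Ccng1 was lower where marked spots are kept or the series table is used, and at -0.02 with quantile normalization. Mdm2 was at -0.11 without HS replicate 4 and -0.03 without ES replicate 1. Trp53inp1 stayed above 0 but was at 0.01 with the mean of all probes. In the main fit 0 of 8 were called by limma, and 3 of 8 had an unadjusted p under 0.05, as did 11.7% of all genes. Over all genes 1.24% were called. Of the 8, 6 members (Cdkn1a, Bbc3, Bax, Sesn2, Trp53inp1 and Casp9) were higher in all 5 animals, against 10.2% of genes with 5 pairs, and 2 members (Bbc3 and Bax) had all 5 HS values above all 5 ES values, against 2.09% of genes. With centring on neighbours 0 of 8 were called, against 0.407% of genes, and the median was 0.31. The 2 members with all 5 HS values above all 5 ES values were then Bax and Sesn2, while Bbc3 overlapped. The share of all genes with that trait after centring is not given here.

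The numbered legs come from the same animals and lay on the same slide, and a fit with the animal as a block changed calls in this comparison. With a fixed animal block Bbc3 was called (adjusted p = 0.037), against 1.58% of all genes. With a random one Bbc3, Casp9 and Bax were called (adjusted p = 0.012, 0.0123 and 0.0235), against 4.43% of genes. The slide as a block gave calls for Bbc3 and Casp9 (adjusted p = 0.0433 and 0.0351), against 2.28% of genes. Calls over all genes thus went up together with those of the members, from 195 genes without a block to 248, 697 and 359 with these blocks. The fixed animal block with centring on neighbours called 0 of 8 members and 0.617% of genes.

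In vehicle animals (HV against EV) 5 of 8 members were higher and 3 lower, with a median of 0.07 and -0.00 over all genes. None of the 8 was called by limma, nor was any of all genes (0%), and Casp9 was the 1 member with an unadjusted p under 0.05, as were 4.64% of genes. Casp9 was also the 1 member higher in all 5 animals, against 3.4% of genes. The difference between the vector's effect in Scriptaid and in vehicle animals was tested as an interaction: it was above 0 for 8 of 8 members, from 0.06 (Casp9) to 0.64 (Cdkn1a), though Ccng1 was at -1.26 with marked spots kept and -1.37 with the series table, and 0 were called, with an adjusted p of 1 for each member and none under 0.05 unadjusted, against 0.178% of genes called. After centring, Casp9 was at -0.08 in that term, and with the division undone Casp9 was at -0.26 and Bbc3 at -0.02. Larger differences in the Scriptaid animals are therefore not shown to differ from those in vehicle animals.

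Averaged over both injections the vector gave 1 called member, Casp9, of 8, against 1.09% of genes. Sesn2, Bax and Bbc3 were 0.25 ± 0.12, 0.24 ± 0.08 and 0.32 ± 0.10 higher in dnHDAC4/5 legs (SE; adjusted p = 0.410, 0.176 and 0.122), and Mdm2 and Ccng1 were at -0.02 and -0.06. With centring 0 of 8 were called, against 0.56% of genes. With the animal as a fixed block Casp9 and Bbc3 were called (adjusted p = 0.0331 and 0.0496), against 1.7% of genes, and with the random block also Bax (adjusted p = 0.0363), against 4.89% of genes.

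Scriptaid alone gave no called member. Between ES and EV legs 4 of 8 members were higher and 4 lower, from -0.20 (Ccng1) to 0.17 (Bbc3), 0 of 8 had an unadjusted p under 0.05, and 0% of all genes were called by limma although 3.84% had an unadjusted p under 0.05. For Cdkn1a the value was -0.15 ± 0.33 (SE), with an interval of -0.79 to 0.49, which holds changes of either sign. Between HS and HV legs 8 of 8 members were above 0, from 0.00 (Ccng1, or -0.46 with marked spots kept and -0.51 with the series table) to 0.51 (Bbc3), with 0 called by limma and 2 (Bbc3 and Trp53inp1) under 0.05 unadjusted, against 1.29% of genes called. With the slide as a block Bbc3 was called there (adjusted p = 0.0341), against 2.39% of genes. On the mean of both legs of an animal 0 of 8 were called, 1 (Bbc3, at 0.34 ± 0.12, SE) had an unadjusted p under 0.05, and 0.204% of genes were called.

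Between the legs with both treatments and those with neither (HS against EV) 2 of 8 members were called, Bbc3 and Casp9, against 2.39% of genes, and the same 2 had all 5 HS values above all 5 EV values, against 2.14% of genes. These are the members with a single spot in column 76. Bax was 0.33 ± 0.11 and Cdkn1a 0.52 ± 0.33 higher (SE; adjusted p = 0.140 and 0.469), and Ccng1 0.16 ± 0.17 lower. With centring 0 of 8 members and 1.06% of genes were called. The 2 members with all 5 HS values above all 5 EV values were then Casp9 and Sesn2, while Bbc3 overlapped. The share of all genes for this is not given here. Casp9 was not called without EV replicate 5 (0.45, adjusted p = 0.0509), HS replicate 1 (0.52, adjusted p = 0.0505) or HS replicate 4 (0.44, adjusted p = 0.0538). The array EV 5 also had 2.05% of spots far below the other arrays away from the border, the most of the 20.

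**Figure D4:**
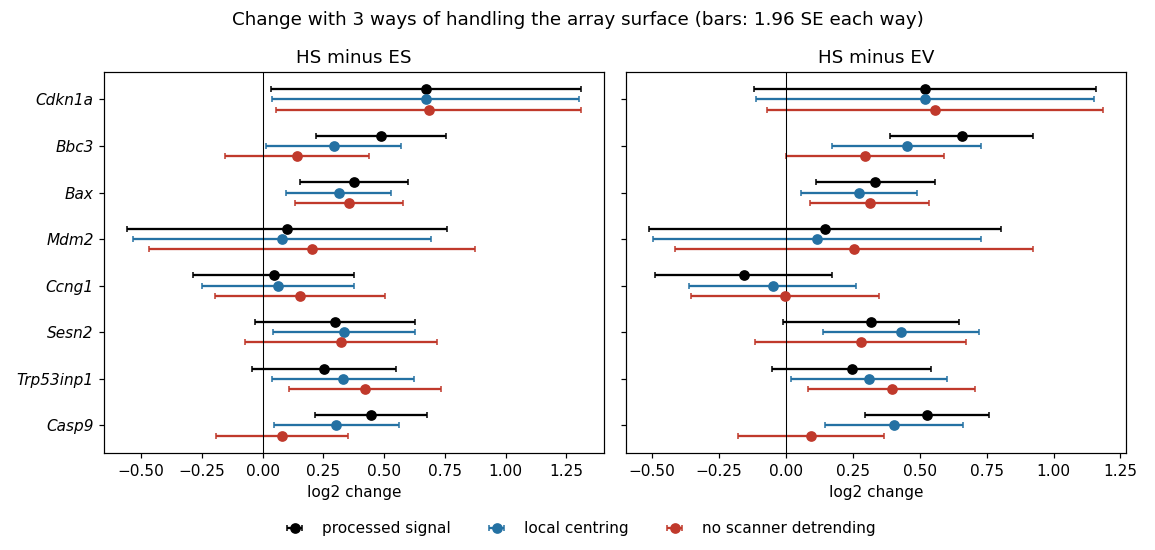
HS minus ES (left) and HS minus EV (right) in log2 units (x axis) for the 8 tested genes (y axis), from the processed signal as deposited, after centring on neighbouring spots, and with the scanner's division undone; bars are 95% intervals, n = 5 a group. Bbc3 and Casp9 shrink (HS minus EV from 0.66 to 0.30 and from 0.53 to 0.09 with the division undone), while Cdkn1a (HS minus ES 0.67, 0.67 and 0.68) and Bax (0.37, 0.31 and 0.35) move less.

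Members varied together among animals in part. After the group means were taken out, Cdkn1a and Sesn2 had a Pearson r of 0.723 over 20 arrays, Cdkn1a and Bax 0.582, and Bax and Bbc3 0.525. Over the 28 pairs the median r was 0.23, with 21 above 0, and Ccng1 and Bbc3 lay lowest at -0.247. These are descriptions over arrays that share animals and slides. Among 12724 tested genes not read from the outermost rows and columns, those most like Cdkn1a were Sdf2l1 (r = 0.868, Spearman rho = 0.86), Mettl21a (r = 0.856, rho = 0.728) and Acbd7 (r = 0.849, rho = 0.78), with Sesn2 ranked 27. Those most like Bbc3 were Ubxn7 (r = 0.802, rho = 0.8), E330016A19Rik (r = 0.791, rho = 0.805) and Il17ra (r = 0.778, rho = 0.626), with Bax ranked 9. These 3 lie in columns 79, 75 and 77, beside the column of Bbc3, and after centring their r with Bbc3 was 0.617, 0.748 and 0.722.

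The genes around p53 were read from 4 lists. Trp53, which encodes p53 itself, was 0.77 ± 0.37 in HS, 0.69 ± 0.48 in HV, 0.75 ± 0.41 in ES and 0.66 ± 0.40 in EV legs (SD, n = 5 each), and HS minus ES was 0.02 ± 0.25 (SE; adjusted p = 0.992). Of 19 tested regulators of p53, 1 was called lower and 0 higher between HS and ES, where 1.24% of all genes were called, with a list median of 0.02 against 0.03 over all genes. The gene was Ep300, an acetyltransferase that coactivates p53, at -2.67 (adjusted p = 0.00665), and also called between HS and EV (-2.78, adjusted p = 0.00387) and for the vector average (-2.20, adjusted p = 0.00327). It was called after centring too (HS minus ES -2.60, adjusted p = 0.0168), but it was read from a dim spot in the border rows. The deubiquitinase gene Usp7 was at 0.45 between HS and ES (adjusted p = 0.175), or 0.20 after centring, and the p53 relative Trp63 at 0.82 for the vector average (adjusted p = 0.0721). On the animal means the lowest p of the list were those of Ep300 (-0.58, adjusted p = 0.718) and of the acetyltransferase gene Crebbp (0.40, adjusted p = 0.793).

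Of 31 other tested p53 targets, 1 was called higher and 0 lower between HS and ES, 1 higher between HS and EV, and 2 higher and 1 lower for the vector average. Over all genes 1.24%, 2.39% and 1.09% were called in these comparisons, and the list median between HS and ES was 0.09, against 0.03 over all genes. Gadd45a, a DNA-damage gene that also responds to denervation in muscle, was 3.23 ± 0.93 in HS and 2.92 ± 0.80 in HV legs, against 2.02 ± 0.20 in ES and 1.80 ± 0.26 in EV legs (SD, n = 5 each). It was 1.16 ± 0.27 higher in dnHDAC4/5 legs (SE; adjusted p = 0.0418), in 10 of 10 animals. Cdkn1c, which encodes the kinase inhibitor p57, was 1.00 ± 0.24 higher in HS than in ES legs (SE; adjusted p = 0.0418) and 0.77 ± 0.17 higher for the vector average (SE; adjusted p = 0.0294). Polk, a DNA polymerase for damaged templates, fell by 0.38 for the vector average (adjusted p = 0.0492) and was lower in 10 of 10 animals; between HS and ES it was at -0.51 (adjusted p = 0.0583). These 3 genes were not called after centring (vector average adjusted p = 0.0662, 0.0616 and 0.144). Ercc5, a DNA repair nuclease, was 0.48 ± 0.12 higher in HS than in EV legs (SE; adjusted p = 0.037) and was called after centring too (0.49, adjusted p = 0.0491). On the animal means Ercc5 was at 0.36 (adjusted p = 0.403) and Ddit4, an inhibitor of mTORC1, at 0.64 (adjusted p = 0.527).

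Of 24 tested BCL2 family and caspase genes beyond the members, 0 were called by limma in any of the 8 comparisons, and the list median was 0.09 between HS and ES, against 0.03 over all genes. The lowest p between HS and ES were those of Apaf1, the scaffold that activates caspase-9 (0.56, adjusted p = 0.170), and Diablo, an antagonist of caspase inhibitors (0.37, adjusted p = 0.307, or 0.18 after centring); for the vector average the same genes were at 0.30 and 0.26 (adjusted p = 0.333 and 0.298). On the animal means Casp12 was at -0.47 and the survival gene Bcl2l1 at 0.56 (adjusted p = 0.301 and 0.415). Of 15 tested cyclin, kinase and proliferation genes, 0 were called between HS and ES, 10 were above 0 and the median was 0.26, against 0.03 over all genes. Mcm2, a replication helicase gene, was called lower between HS and HV (-4.04, adjusted p = 0.0112), between HS and EV (-3.83, adjusted p = 0.0142) and on the animal means (-2.49, adjusted p = 0.0293), but its spot lies in column 85, and after centring it was called in none of these 3. It was at -2.90 between HS and ES (adjusted p = 0.0886) and at -1.35 for the vector average (adjusted p = 0.322). Ccnd1, which encodes cyclin D1, was 0.61 ± 0.16 lower in HS than in EV legs (SE; adjusted p = 0.0452) and was not called after centring (-0.60, adjusted p = 0.0805); on the animal means it was at -0.51 (adjusted p = 0.380). Rb1, the retinoblastoma gene, was at 0.29 between HS and ES (adjusted p = 0.281) and at 0.14 for the vector average (adjusted p = 0.521).

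Markers of other cells were read beside these values. Summed on the linear scale, 9 macrophage markers ran from 6.08 to 138 in HS, 51.1 to 91.8 in HV, 13.9 to 67.4 in ES and 31 to 72.5 in EV legs, in units of the array's 75th percentile, with 8 of 9 above 0 between HS and ES and 0 called. For 6 adipocyte markers the sums ran from 110 to 266 in HS, 93.9 to 142 in HV, 71.3 to 192 in ES and 85.5 to 165 in EV legs, and 6 of 6 were above 0 between HS and ES, 0 called. The adipocyte median was 1.95 between HS and ES, 0.66 between HS and EV and -0.47 between HV and EV. For 5 satellite cell and myoblast markers the sums ran from 9.32 to 12.6 in HS, 7.23 to 10.8 in HV, 6.87 to 8.61 in ES and 6.55 to 8.6 in EV legs, so that HS and ES did not overlap, with 4 of 5 above 0. For 10 markers of fast muscle fibres the sums ran from 1050 to 2340 in HS, 1190 to 1590 in HV, 991 to 1640 in ES and 1140 to 1480 in EV legs. All 7 endothelial markers were below 0 between HS and ES, with a median of -0.21 and 1 called, and sums of 17.6 to 28.5 in HS, 21.6 to 34.3 in HV, 22.8 to 34 in ES and 22.2 to 34.5 in EV legs. Fibroblast markers summed to 80.9 to 267 in HS, 136 to 291 in HV, 148 to 214 in ES and 139 to 280 in EV legs (5 of 7 above 0, 0 called), and Schwann cell markers to 8.32 to 22 in HS, 2.34 to 16.3 in HV, 7.37 to 14.3 in ES and 7.84 to 17.3 in EV legs (3 of 6 above 0, 1 called). Neutrophil and lymphocyte markers summed to 1.26 to 159 in HS, 0.297 to 1.8 in HV, 0.749 to 1.94 in ES and 0.29 to 91.1 in EV legs (2 of 3 above 0, 0 called), and red blood cell markers to 23.4 to 175 in HS, 12.7 to 44.9 in HV, 30.9 to 57.9 in ES and 1.15 to 113 in EV legs (3 of 3 above 0, 0 called). Pvalb, Myf5, Lep, Cd3g, Cd79a, Ms4a1 and Hba-a1 were not among the genes tested. Between HS and ES 1.24% of all genes were called. No marker values centred on neighbours are given, and the part of the HS border in the marker sums and calls was not tested. The part of these cells in the members' values was not tested either.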

How the data were processed

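RNA (100 ng per array) was labelled with Cy3, per the labels' protocols. Per the file headers, the authors' deposited intensity values come from Agilent Feature Extraction 9.5.1.1, which subtracted background and divided by a fitted trend surface (a ratio per spot, also deposited in the authors' files). The series table holds the processed intensity as a ratio to a single constant per array. From these, log2 values less the 75th percentile were formed, marked spots dropped, spots of a probe averaged, probes kept when well above background on at least 5 arrays with at least 3 arrays per group, and the brightest probe taken per gene. Group means were fitted by limma (version 3.58.1, under R 4.3.3), two-sided, with Benjamini-Hochberg adjustment. Intervals are the difference plus or minus 1.96 SE, which is narrower than the t test of limma allows. Python 3.11.15 read sequences. The number of arrays limits the precision. Centring took the median of spots within 1 column and 40 rows; it and the fit without the trend surface were chosen after seeing the data. Legs with 1 number share an animal, per the labels, and a slide, and deviated together (r of 0.204 to 0.36 for HS and ES, 0.0325 to 0.412 for HV and EV). Arrays of different animals on 1 slide did so too (r of 0.0501 to 0.388 for HS and HV, 0.147 to 0.272 for ES and EV). The parts of animal and slide were not tested. On simulated data for HS against ES (15719 genes), 18% of 50 genes changed by 0.5 and 68% of 50 changed by 1 were called. There 10 unchanged genes were called too. The simulated noise was independent for each gene and array, with no shared animal or slide and no border effect. Rates in the real data may therefore differ. Alternatives are in the closing section. Members and lists were chosen with earlier results of these data known. Named from lists: called genes, the 2 of lowest p for HS against ES, the vector average and the animal means, and Trp53; like genes are the 3 of highest r.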

Additional observations from a re-analysis of the deposited data

Results flagged for a closer look

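Of the 36 sets of 5 arrays (9 genes in 4 groups), 2 held a value far from the rest. Chance alone marks about 1 in 20 such sets. Sesn2 on EV array 3 was -0.513, while the nearest EV array was at -0.00, and HS array 3, HV array 3 and ES array 3 of the same slide were also the lowest of their groups. Casp9 on EV array 5 was -0.197, while the nearest EV array was at 0.17. Both values were kept in the results above.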

How the results depend on the processing

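Over 8 comparisons and 8 members, 2016 log2 changes were recomputed; 1871 kept their direction and side of the threshold, 26 lost a call and 16 gained one with their direction kept, and 103 changed sign, of which 102 had not been called and 1 had (Bbc3 between HS and EV, -0.046 with normexp background, adjusted p = 0.832). Between HS and ES, 0 members were called, against 3 with the replicate block of animal as random, 1 with it fixed, 2 with the slide as block and 1 with the slide block without edge spots. Leaving out 1 replicate gave 0 to 1 there (Casp9 without HS replicate 5, adjusted p = 0.0442). Between HS and HV, 0 were called, against 1 with quantile normalization (Bbc3, adjusted p = 0.0435), 1 with the slide block and 1 with the slide block without edge spots. Between HS and EV, 2 were called, against 1 with median centring, 1 with normexp (Trp53inp1, 0.55, adjusted p = 0.037), 1 with no filter on dim probes, 1 with the slide block and local centring together (Sesn2, adjusted p = 0.0372), and 0 with the series table, with only the groups compared, with local centring, with or without edge spots, and with no scanner detrending; leaving out 1 replicate gave 1 to 2. For the vector average 1 was called, against 3 with the animal block random, 2 with it fixed, and 0 with median centring, normexp, the series table, no filter, local centring with or without edge spots, the animal block with local centring, and no detrending; leaving out 1 replicate gave 1. The animal or slide block changed no other member call than these and those given in the report. Genes called over the alternatives ran from 14 to 697 (195 as reported) between HS and ES, 17 to 476 (202) between HS and HV, 44 to 1441 (376) between HS and EV, 54 to 768 (172) for the vector average, 0 to 133 (28) for the interaction, 0 to 101 (32) for the animal means, 0 to 4 (0) between HV and EV and 0 to 1 (0) between ES and EV. The causes of these shifts were not tested. Signal over background limits Pmaip1, and 5 arrays per group limit changes near 0.5.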
